A study of Mus musculus with 7 samples.

Results

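The genes described here encode 10 plasma proteins that the liver secretes in larger amounts during inflammation: the orosomucoids Orm1, Orm2 and Orm3, the haemoglobin and heme scavengers Hp and Hpx, the inter-alpha-inhibitor heavy chains Itih3 and Itih4, the protease-trapping A2m, the ferroxidase Cp and the pentraxin Apcs. They were picked by gene symbol among the 56691 genes of the count table, with earlier results of these data known. All 10 were found, and all 10 were among the 13683 genes with enough counts to be tested. Positive acute phase proteins are made mainly by hepatocytes, and their genes are switched on by cytokines such as IL-6 and IL-1 through STAT3, C/EBP and NF-kappa B transcription factors. Once in plasma they carry small molecules, bind haemoglobin and free heme, trap proteases, stabilise hyaluronan or tag microbes and debris for phagocytes. Which of them respond strongly differs between species, and in mice the pentraxin Apcs is the classical responder while Crp is a minor one.

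Livers of male C57BL/6J mice, an inbred laboratory strain, were sequenced as bulk polyadenylated RNA from 4 Control mice and 3 mice given LPS, the endotoxin of Gram-negative bacteria, by intraperitoneal injection at 10 mg/kg. The animals were bought at 8 weeks of age, housed for 2 weeks, and the LPS-treated mice were killed 24 h after the injection. What, if anything, the Control mice were injected with is not stated, and the mice given sulforaphane before LPS were not analysed here. The sample labels give a number to each mouse, written here as Control 1 to 4 and LPS 1 to 3, and the p-values measure the spread between these samples. LPS 2 and LPS 3 resembled each other more than any other pair of a group, with an SD of the log2 ratio of 0.12 over 1900 well counted genes against 0.31 to 0.55 in the other pairs. Their chi-square per gene was 8.45, against 125 to 1170 in the other pairs. That does not show whether they are independent animals, so they were kept as the labels give them and were also summed into 1 sample as an alternative. Libraries held between 14991022 counts (Control 1) and 20500391 counts (LPS 1). Levels are given as CPM, counts brought to a common library size with edgeR's TMM factors, and 3 counts, taken as the smallest detectable amount, came to between 0.138 and 0.212 CPM, which covers counting error only. In whole liver RNA, a change in the number of cells of a type and a change in the RNA per cell cannot be told apart.

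All 10 genes were higher in LPS-treated mice and were called, which here means an adjusted p below 0.05 from edgeR's quasi-likelihood test over all tested genes and a log2 fold change above 1. Over all tested genes, 7.81% were called higher and 7.31% lower. In all 10 genes every LPS-treated mouse lay above every Control mouse, which held for 18.1% of all tested genes. The median log2 fold change was 3.66 for the 10 genes and -0.01 for all tested genes. Because the 10 were chosen with earlier results of these data known, these comparisons with all tested genes are a description only. All 10 also passed the low-count filter on at least 3 Control mice alone, so none was tested only because it was high after LPS. Together they took 0.926%, 1.15%, 1.03% and 0.887% of all counts in Control 1 to 4, and 8.16%, 9.38% and 9.50% in LPS 1 to 3. The lowest share after LPS was thus several times the highest share in the Control group.

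**Figure D1:**
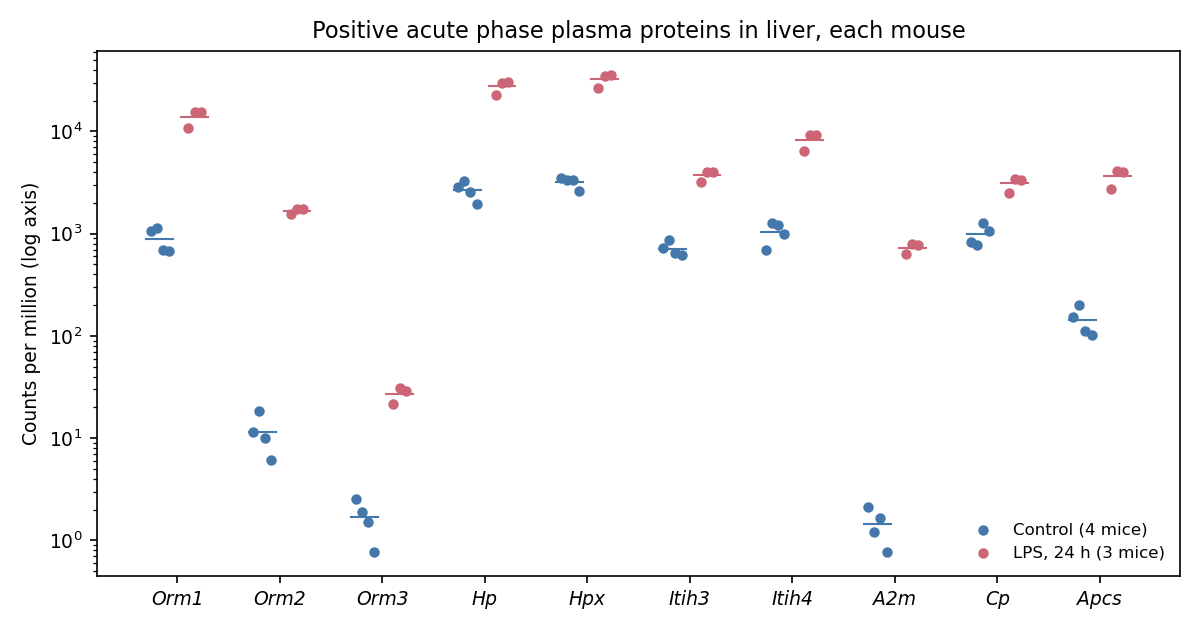
Level of each of the 10 genes in every mouse, in CPM on a log axis, with 4 Control mice in blue and 3 LPS-treated mice in red and a line at each group's mean. For each gene the 3 LPS-treated mice lie above the 4 Control mice, from the smallest distance in Cp, with a mean of 3103.5 against 987 CPM, to the largest in A2m, with 733 against 1.44 CPM.

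The orosomucoids, also called alpha-1-acid glycoproteins, are small lipocalins that carry basic and neutral drugs and lipids in plasma. Orm1 (ENSMUSG00000039196) was the main form in liver, with 1059, 1148, 693 and 673 CPM in Control 1 to 4 and 10707, 15435 and 15621 CPM in LPS 1 to 3. Every LPS-treated mouse was far above the highest Control mouse, LPS 1 was the lowest of its group, and Control 1 and 2 were above Control 3 and 4. The means were 893 ± 246 CPM over Control mice (SD, n = 4) and 13921 ± 2785 CPM over LPS-treated mice (SD, n = 3), with a log2 fold change of 3.96 (edgeR adjusted p = 3.22e-07, SE 0.26). Orm2 (ENSMUSG00000061540) started from a much lower level, with 11.6, 18.4, 10.1 and 6.10 CPM in Control 1 to 4 and 1555, 1737 and 1764 CPM in LPS 1 to 3. The LPS-treated mice were close to each other, with a coefficient of variation of 6.75%, while the Control mice, with 126 to 292 counts, varied by 44.4%. The mean rose from 11.6 ± 5.13 CPM over Control mice (SD, n = 4) to 1685 ± 114 CPM over LPS-treated mice (SD, n = 3), which is 146-fold, and the log2 fold change was 7.19 (edgeR adjusted p = 1.69e-08, SE 0.33). Orm3 (ENSMUSG00000028359) was the rarest of the family, with 2.55, 1.89, 1.53 and 0.774 CPM in Control 1 to 4 and 21.4, 31.3 and 28.6 CPM in LPS 1 to 3. It rested on only 16 to 36 counts in the Control mice, and the groups did not overlap. Its log2 fold change was 4.03 (edgeR adjusted p = 9.99e-07, SE 0.30).

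The make-up of the family shifted from Orm1 towards Orm2. Orm2 took 1.08%, 1.58%, 1.44% and 0.897% of the orosomucoid counts in Control 1 to 4 and 12.7%, 10.1% and 10.1% in LPS 1 to 3. No Control mouse came near the LPS-treated mice in this share, which needs no scaling between libraries. Orm1 made up 98.3% to 99.0% in the Control group and 87.2% to 89.7% after LPS. The log2 ratio of Orm2 to Orm1 was -6.33 ± 0.38 (SD, n = 4) in Control mice and -3.03 ± 0.21 (SD, n = 3) in LPS-treated mice, a difference of 3.31 (exact permutation test, two-sided, p = 0.0286, the smallest that 4 mice against 3 allow, and 0.0572 after Benjamini-Hochberg adjustment over the 6 within-mouse ratios examined). The ratio of Orm3 to Orm1 moved little, with a log2 difference of 0.10 (adjusted p = 0.886 from the exact permutation test). The 3 genes lie side by side on chromosome 4 in the order Orm1, Orm3, Orm2, as the RefSeq annotation of assembly GRCm38.p6 places them. Their transcripts are alike: in GENCODE M21, 20.4% of the 50-base windows of Orm1 are also found in Orm2 or Orm3, and 6.95% of its 100-base windows in Orm2, while 22.7% of the 50-base windows of Orm2 are found in another gene (Orm1, Orm3 or Gm11212) and 3.59% of those of Orm3 in another orosomucoid. How the counting treated reads that fit several genes is not given in the sources used here, so the split within the family is uncertain. In the other 7 genes 0 windows of either length are shared with another gene.

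**Figure D2:**
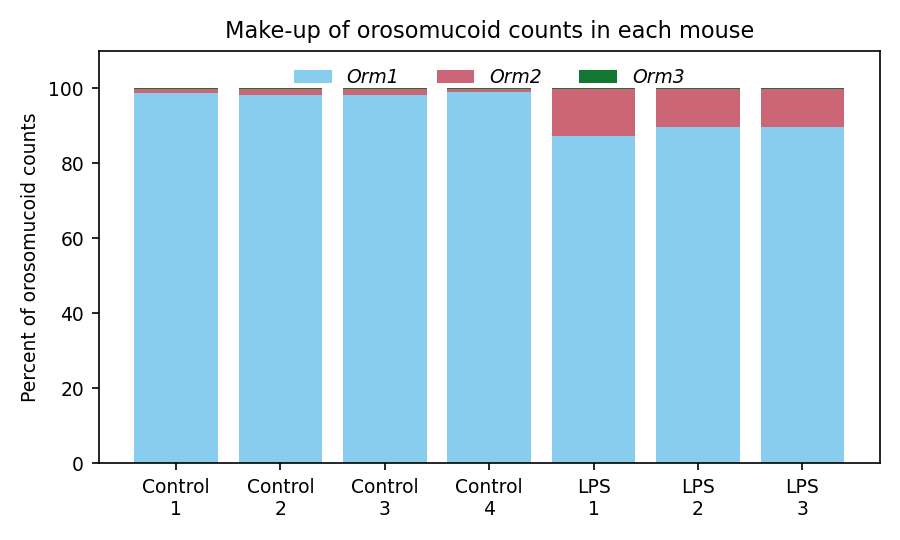
Share of Orm1, Orm2 and Orm3 in the orosomucoid counts of each mouse, in percent, as stacked bars that start at 0 and sum to 100. The Orm2 part is at most 1.58% in the 4 Control mice and at least 10.1% in the 3 LPS-treated mice, and the Orm3 part is too small to see, at most 0.237%.

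Haptoglobin (Hp) binds haemoglobin that leaves red cells, and hemopexin (Hpx) binds free heme. Hp (ENSMUSG00000031722) had 2881, 3287, 2569 and 1940.2 CPM in Control 1 to 4 and 22598, 29458 and 30527 CPM in LPS 1 to 3. Hpx (ENSMUSG00000030895) had 3467.5, 3358, 3341.5 and 2595 CPM in Control 1 to 4 and 26587, 35072 and 35978 CPM in LPS 1 to 3. In both genes the lowest LPS-treated mouse, LPS 1, was well above the highest Control mouse, and Control 4 was the lowest of the Control mice. The mean of Hpx went from 3190.5 ± 401 CPM over Control mice (SD, n = 4) to 32546 ± 5180.1 CPM over LPS-treated mice (SD, n = 3), with a log2 fold change of 3.35 (edgeR adjusted p = 3.07e-07, SE 0.22), and that of Hp was 3.37 (edgeR adjusted p = 5.81e-07, SE 0.24). Of all genes in the table, Hpx had the most counts in each of the 3 LPS libraries, with 2.81%, 3.18% and 3.24% of the total in LPS 1 to 3. In Control 1 to 4 it took 0.327%, 0.352%, 0.348% and 0.289%, where it ranked 36, 35, 40 and 44 by counts. Hp ranked 5, 4 and 4 in LPS 1 to 3. No difference in their proportion was detected: the log2 ratio of Hpx to Hp was 0.27 ± 0.17 (SD, n = 4) in Control mice and 0.24 ± 0.01 (SD, n = 3) in LPS-treated mice (exact permutation p = 0.886, unchanged by adjustment). That p does not show that the ratios were equal.

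Around these scavengers, 14 genes of haemoglobin and heme clearance were examined, and of the 14 tested 1 was called higher and 4 lower, with a median log2 fold change of -0.18. The gene called higher was Hmox1, the inducible heme oxygenase that opens the heme ring, with 5.80, 7.13, 7.27 and 5.13 CPM in Control 1 to 4 and 99.5, 54.8 and 52.4 CPM in LPS 1 to 3. Each LPS-treated mouse exceeded each Control mouse, and LPS 1 was the highest of them (log2 fold change 3.45, SE 0.24, edgeR adjusted p = 5.15e-07). The macrophage receptor for haptoglobin-haemoglobin, Cd163, was at 4.60 to 8.58 CPM in Control mice and 6.85 to 13.4 CPM in LPS-treated mice, which overlap (log2 fold change 0.48, SE 0.29, edgeR adjusted p = 0.246). The hemopexin-heme receptor Lrp1, which also takes up protease-loaded macroglobulins, had a log2 fold change of 0.46 (edgeR adjusted p = 0.0273, SE 0.14), under the fold threshold, with every LPS-treated mouse above every Control mouse. Among those called lower, the biliverdin reductase Blvrb had a log2 fold change of -1.05 (edgeR adjusted p = 0.00549, SE 0.23), and it was not past the fold threshold without Control 1 (-0.90), Control 2 (-0.93) or LPS 3 (-0.98), nor with LPS 2 and LPS 3 summed, where it lay at the threshold. The globin genes Hba-a1 and Hbb-bt, which mark red cell precursors and reticulocytes, had log2 fold changes of -1.76 and -1.94 (adjusted p = 0.0405 and 0.0148 from edgeR). Both stayed negative in every alternative, but their calls rested on single libraries. Without LPS 1 the log2 fold changes were -3.31 and -2.79 (edgeR adjusted p = 4.72e-05 and 0.00305), with the replicate number as a block -2.43 and -2.17 (0.000982 and 0.00114), and without LPS 3 they were -1.38 and -1.64 (0.147 and 0.0686). For Hba-a1 the adjusted p was also above 0.05 without Control 1, 2 or 3 or LPS 2 (0.0832, 0.0623, 0.0518 and 0.124, at log2 fold changes of -1.47, -1.90, -1.73 and -1.33), in DESeq2 (0.1, at -1.77) and with LPS 2 and LPS 3 summed (0.137, at -1.37). For Hbb-bt it was above 0.05 in edgeR without LPS 2 (adjusted p = 0.066, at -1.69) and with that pair summed (0.0632, at -1.71).

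Inter-alpha-inhibitor heavy chains are cut from precursors and joined to bikunin, the product of Ambp, or to hyaluronan, whereas the Itih4 product circulates without bikunin. Itih3 (ENSMUSG00000006522) had 717, 874, 646 and 620.2 CPM in Control 1 to 4 and 3193, 4009 and 3983 CPM in LPS 1 to 3. Itih4 (ENSMUSG00000021922) had 694, 1286, 1206 and 987 CPM in Control 1 to 4 and 6487, 9268 and 9253 CPM in LPS 1 to 3. The groups were apart in both genes, but the low mouse among the Control mice differed: it was Control 4 for Itih3 and Control 1 for Itih4. Itih3 rose from 714 ± 114 CPM over Control mice (SD, n = 4) to 3728 ± 464 CPM over LPS-treated mice (SD, n = 3), with a log2 fold change of 2.38 (edgeR adjusted p = 1.09e-06, SE 0.18). Itih4 rose from 1043 ± 265 CPM over Control mice (SD, n = 4) to 8336 ± 1601 CPM over LPS-treated mice (SD, n = 3), with a ratio of means of 7.99 (edgeR adjusted p = 1.71e-06, SE of the log2 fold change 0.24). The ratio of Itih4 to Itih3 counts was 0.967, 1.47, 1.87 and 1.59 in Control 1 to 4 and 2.03, 2.31 and 2.32 in LPS 1 to 3. Each LPS-treated mouse was above each Control mouse, though Control 3 came close to LPS 1 (log2 difference 0.63, exact permutation test, two-sided, p = 0.0571, adjusted 0.0857).

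The other heavy chains of the complex did not pass the test. Itih1, which lies beside Itih3 and Itih4 on chromosome 14 in the order Itih4, Itih3, Itih1, had 474 to 601 CPM in Control mice and 510 to 829 CPM in LPS-treated mice (log2 fold change 0.35, SE 0.18, edgeR adjusted p = 0.193). Itih2 had 715 to 1148 CPM and 732 to 1377 CPM (log2 fold change 0.31, SE 0.23, edgeR adjusted p = 0.363). In both genes LPS 1 lay within the Control range, while LPS 2 and LPS 3 were above every Control mouse. Ambp, whose product is split into bikunin and the lipocalin alpha-1-microglobulin, had 2108, 2537, 2411 and 2140.1 CPM in Control 1 to 4 and 3754, 4818 and 4870.1 CPM in LPS 1 to 3. All LPS-treated mice were higher, but its log2 fold change of 0.96 (edgeR adjusted p = 0.00126, SE 0.17) was under the fold threshold, and it was 1.08 without LPS 1. Of the list of 10 inter-alpha-inhibitor and hyaluronan genes 6 were tested, 2 were called higher and 1 lower, with a median log2 fold change of 0.66. The higher ones were the hyaluronan receptor Cd44 (log2 fold change 1.79, SE 0.37, edgeR adjusted p = 0.0031) and the hyaluronan-binding proteoglycan Vcan. Vcan had only 0 to 9 counts in Control mice and 35 to 53 in LPS-treated mice, so it passed the low-count filter through the latter, and its log2 fold change of 3.40 was 4.54 without Control 1. Itih5, a heavy chain found mostly outside hepatocytes, fell, at a log2 fold change of -1.30 (edgeR adjusted p = 0.00383, SE 0.28). The hyaluronan synthase genes Has1 and Has2 had 0 counts in every mouse.

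A2m encodes alpha-2-macroglobulin, a large protein that traps proteases of many classes. A2m (ENSMUSG00000030111) was barely present in Control mice, with 2.12, 1.20, 1.65 and 0.774 CPM in Control 1 to 4, and had 636, 786 and 776 CPM in LPS 1 to 3. These values rest on 16 to 30 counts in the Control mice and 12205 to 13791 counts in the LPS-treated mice, so the size of the fold depends on a small Control level, though each Control library was above the 3-count floor. The mean went from 1.44 ± 0.581 CPM over Control mice (SD, n = 4) to 733 ± 84.3 CPM over LPS-treated mice (SD, n = 3), which is 510-fold. The log2 fold change was 9.02 (SE 0.28, 95% confidence interval 8.40 to 9.64, adjusted p = 5.84e-10 from edgeR), the largest of the 10 genes and rank 13 of all 13683 tested genes. With each mouse left out in turn it was between 8.78 and 9.26.

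None of the tested relatives of A2m was called higher, and they did not all move in the same direction. Pzp, the main alpha-macroglobulin of mouse plasma, had 2097, 2601, 3977 and 3267 CPM in Control 1 to 4 and 4818, 6376 and 6599 CPM in LPS 1 to 3. Each LPS-treated mouse exceeded each Control mouse, and the log2 fold change of 0.99 (edgeR adjusted p = 0.00669, SE 0.23) was just under the fold threshold, which it passed without Control 3 (1.16), Control 4 (1.03) or LPS 1 (1.12) and with the replicate number as a block (1.08). The murinoglobulins Mug1 and Mug2, single-chain relatives that lie next to A2m on chromosome 6, had every LPS-treated mouse below every Control mouse. Mug2 was called lower, with 499 to 607 CPM in Control mice and 161 to 178 CPM in LPS-treated mice (log2 fold change -1.66, SE 0.15, edgeR adjusted p = 3.69e-06), and Mug1 was not past the fold threshold (log2 fold change -0.57, SE 0.19, edgeR adjusted p = 0.0439). A2ml1, another relative, had 13.6 to 30.6 CPM in Control mice and 22.1 to 51.0 CPM in LPS-treated mice, which overlap. Its log2 fold change of 0.99 (edgeR adjusted p = 0.0372, SE 0.32) was just under the fold threshold. In the list of 7 macroglobulin family and receptor genes 6 were tested, 1 was called lower, and the median log2 fold change was 0.10. Counts of A2m per count of Pzp were 0.00101, 0.000461, 0.000415 and 0.000237 in Control 1 to 4 and 0.132, 0.123 and 0.118 in LPS 1 to 3. The ranges lie far apart, a log2 difference of 8.03 (exact permutation test, two-sided, p = 0.0286, adjusted 0.0572).

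Cp encodes ceruloplasmin, the copper-carrying ferroxidase of plasma. Cp (ENSMUSG00000003617) had 838, 776, 1281 and 1052 CPM in Control 1 to 4 and 2514, 3410.5 and 3386 CPM in LPS 1 to 3. The groups did not overlap, and unlike most of the 10 genes its highest Control mice were Control 3 and 4. The mean rose from 987 ± 229 CPM over Control mice (SD, n = 4) to 3103.5 ± 510.5 CPM over LPS-treated mice (SD, n = 3), with a log2 fold change of 1.65 (edgeR adjusted p = 7.75e-05, SE 0.21), the smallest of the 10. Of the 8 genes for other ferroxidases and copper supply 7 were tested, 1 was called lower, and the median log2 fold change was 0.12. That gene was Ccs, the copper chaperone for superoxide dismutase, with 151 to 197 CPM in Control mice and 81.9 to 85.2 CPM in LPS-treated mice (log2 fold change -1.03, SE 0.15, edgeR adjusted p = 0.000215). Without Control 1 its log2 fold change was -0.96, under the fold threshold.

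Apcs encodes serum amyloid P component, a pentraxin that binds amyloid, chromatin and microbial surfaces. Apcs (ENSMUSG00000026542) had 153, 202, 111 and 102 CPM in Control 1 to 4 and 2764, 4104 and 4043.5 CPM in LPS 1 to 3. LPS 1 was clearly under the other LPS-treated mice and still far above Control 2, the highest Control mouse. The mean rose 25.6-fold, from 142 ± 45.5 CPM over Control mice (SD, n = 4) to 3637 ± 757 CPM over LPS-treated mice (SD, n = 3), with a log2 fold change of 4.68 (edgeR adjusted p = 9.85e-08, SE 0.27). Crp, its neighbour on chromosome 1 and the C-reactive protein gene, had 259, 294, 347 and 345 CPM in Control 1 to 4 and 642, 615 and 621 CPM in LPS 1 to 3. The groups were apart here too, with LPS 1 the highest. Its log2 fold change of 1.01 (edgeR adjusted p = 0.000299, SE 0.15) sat on the fold threshold, and the call was kept in 12 of the 18 alternatives. It was lost without Control 1 (0.93), Control 2 (0.97) or LPS 1 (0.99), with total counts and no scaling (0.88), with at least 10 counts required in every mouse (0.99) and, at the threshold itself, with mitochondrial genes left out. In counts, Apcs went from 0.590, 0.685, 0.320 and 0.296 of Crp in Control 1 to 4 to 4.30, 6.67 and 6.51 times Crp in LPS 1 to 3, so every LPS-treated mouse had more Apcs than Crp counts and every Control mouse fewer (log2 difference 3.69, exact permutation test, two-sided, p = 0.0286, adjusted 0.0572). The order by counts in Control mice depends on gene length, with 971 bases of exon in Apcs and 3444 in Crp. Per kilobase of exon, Apcs was above Crp in every Control mouse too, at 105 to 208 against 75.2 to 100.6 CPM per kilobase. In Control 4 the margin was small, at 105.35 against 100.3. The Crp length counts all its exons together, and a shorter transcript would raise its value, so this order in Control mice is uncertain. The change in their ratio between groups does not depend on length. Ptx3, the long pentraxin made at sites of inflammation, had 0 counts in each Control mouse and 8, 1 and 3 counts in LPS 1 to 3 and was not tested. Of the list of 9 pentraxins and Fc receptors that bind them 5 were tested, and 4 were called higher, with a median log2 fold change of 2.12. Besides Crp these included the activating receptors Fcgr3 (log2 fold change 2.42, SE 0.28, edgeR adjusted p = 3.82e-05) and Fcgr4 (2.52, SE 0.43, adjusted p = 0.000848 from edgeR), and without LPS 1 the log2 fold change of Fcgr4 was 1.77.

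**Figure D3:**
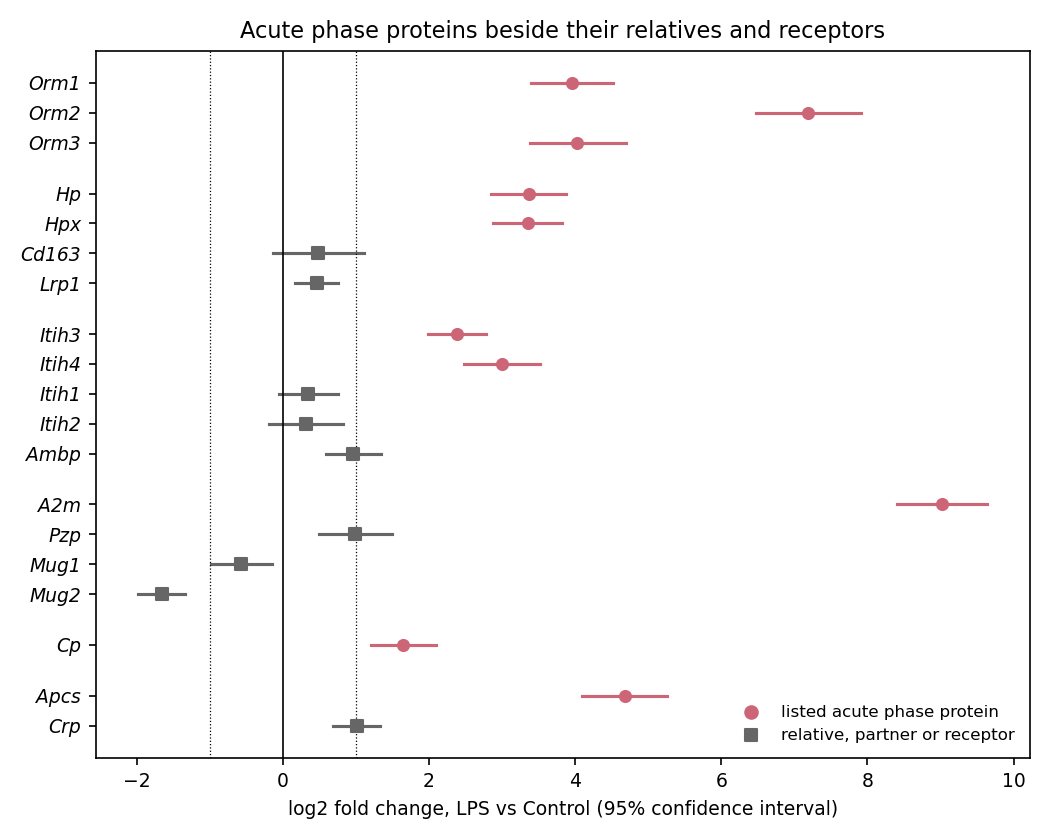
Log2 fold change of LPS-treated against Control mice with its 95% confidence interval from edgeR, for the 10 acute phase genes (red circles) and for relatives, partners and receptors (grey squares), with dotted lines at the fold threshold of 1 in either direction. The 10 genes lie between 1.65 and 9.02, the 9 other genes drawn, a chosen part of those examined, lie between -1.66 (Mug2) and 1.01 (Crp), and others that are not drawn, such as Lcn2, Hmox1 and Fcgr3, lie higher.

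Levels of different genes were compared per kilobase of exon, with lengths from GENCODE M21 matched by gene identifier. In Control mice Hpx was highest by the mean, at 1731 to 2313 CPM per kilobase, followed by Hp at 1208 to 2047 and Orm1 at 868 to 1481.5. Neighbours in this order overlapped between mice. After a wide gap came Itih4 at 188 to 348 CPM per kilobase, Itih3 at 170.5 to 240.1, Apcs at 105 to 208 and Cp at 81.1 to 134, again each overlapping the next. Orm2, at 7.87 to 23.8 CPM per kilobase, Orm3, at 1.00 to 3.30, and A2m, at 0.110 to 0.302, were each apart from the gene above. In LPS-treated mice the leading genes were Hpx at 17736 to 24001 CPM per kilobase, Orm1 at 13815 to 20156 and Hp at 14071 to 19008, which overlapped. Apcs followed at 2846 to 4226 CPM per kilobase, then Itih4 at 1758 to 2512 and Orm2 at 2006 to 2276, the last pair overlapping. Itih3 at 878 to 1102 CPM per kilobase, Cp at 263 to 357, A2m at 90.5 to 112 and Orm3 at 27.7 to 40.5 did not overlap their neighbours. By these means Apcs moved up past Itih4 and Itih3, Orm2 past Cp and Itih3, and A2m from the bottom to above Orm3. Orm1 also came out above Hp after LPS, at means of 17963 against 17141 CPM per kilobase, but that order depends on the length used. Hp has 1606 bases of exon in all and 1345 in its longest protein-coding transcript, while Orm1 has 775 in both. The length of a gene is that of all its exons together, so genes with long alternative exons, such as Cp, A2m and Hp, may be set too low.

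The lowest mouse of a group was mostly the same across these genes, while the order of the other mice varied. LPS 1 was the lowest LPS-treated mouse in all 10 genes, and it was the lowest in 45.6% of the other 1058 genes called higher. Control 4 was the lowest Control mouse in 8 of the 10, and in 23.2% of those other genes. Coefficients of variation over Control mice were between 12.6% (Hpx) and 44.4% (Orm2), and over LPS-treated mice between 6.75% (Orm2) and 20.8% (Apcs). Without LPS 1 the log2 fold changes were 4.12 for Orm1, 7.25 for Orm2, 3.48 for Hpx, 9.12 for A2m, 1.79 for Cp and 4.85 for Apcs, and with LPS 2 and LPS 3 summed into 1 sample they were 3.89, 7.17, 3.29, 8.98, 1.59 and 4.60, with all 10 genes still called. The tested genes outside the 10 whose log2 CPM followed the mean standardised profile of the 10 most closely over the 7 mice were Lrrc59 (Pearson r = 0.9992), E030018B13Rik (0.9983), Saa1 (0.9980), Gm8437 (0.9979) and Ptpn2 (0.9978), out of 13673 compared. These coefficients describe likeness only, since the distance between the 2 groups sets most of each. E030018B13Rik had 1 to 4 counts in the Control mice and Gm8437 had 0 or 1, so both passed the low-count filter only through the LPS-treated mice. Their likeness among the Control mice could not be measured. Saa1, an apolipoprotein of the acute phase, averaged 87.3 ± 40.4 CPM in Control mice (SD, n = 4) and 22105 ± 4939 CPM in LPS-treated mice (SD, n = 3), without overlap.

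Lipocalins made in liver, the structural family of the orosomucoids, did not move as one. Of 7 genes, all tested, 1 was called higher and 2 lower, with a median log2 fold change of -0.55. Lcn2, a lipocalin that binds bacterial siderophores, had 14.8, 10.3, 7.94 and 6.24 CPM in Control 1 to 4 and 6592, 9070.1 and 9256 CPM in LPS 1 to 3. Like 8 of the 10 genes it was lowest in LPS 1 and in Control 4. It was called higher (log2 fold change 9.73, SE 0.35, edgeR adjusted p = 2.64e-09), with a confidence interval that overlaps that of A2m, and the difference between them was not tested. C8g, the lipocalin subunit of complement C8, was lower, with 270.3 to 379 CPM in Control mice and 118 to 126 CPM in LPS-treated mice (log2 fold change -1.38, SE 0.16, edgeR adjusted p = 4.72e-05), and so was the prostaglandin synthase Ptgds (log2 fold change -1.59, SE 0.40, edgeR adjusted p = 0.0116).

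Most cytokines that switch on acute phase genes had few counts in these livers. Of 8 cytokine genes 3 were tested, and all 3 were called higher: Il1b, Il1a and Tnf. Tnf, with 0, 3, 0 and 0 counts in Control 1 to 4 and 83, 21 and 16 in LPS 1 to 3, passed the low-count filter only through the LPS-treated mice. Il1b had 14, 34, 35 and 30 counts in Control 1 to 4 and 436, 233 and 187 counts in LPS 1 to 3. Its log2 fold change was 3.21 (SE 0.30, edgeR adjusted p = 5.48e-06). Il1a had 2.05, 6.00, 3.30 and 2.56 CPM in Control 1 to 4 and 18.4, 9.47 and 8.72 CPM in LPS 1 to 3 (log2 fold change 1.81, SE 0.37, edgeR adjusted p = 0.0029). Il6, named after its values were seen, had 0, 7, 0 and 0 counts in Control 1 to 4 and 11, 9 and 10 counts in LPS 1 to 3, too few to be tested. Of 10 receptors and kinases, all tested, 4 were called higher and 2 lower, with a median log2 fold change of 0.31. The IL-6 receptor Il6ra had 15.6 to 28.2 CPM in Control mice and 51.2 to 56.2 CPM in LPS-treated mice (log2 fold change 1.35, SE 0.18, edgeR adjusted p = 0.000163), while its signalling partner Il6st overlapped between groups (0.21, SE 0.15, adjusted p = 0.347). The IL-1 receptor Il1r1 was higher (log2 fold change 2.30, SE 0.18, edgeR adjusted p = 1.40e-06) and its accessory chain Il1rap lower (-1.62, SE 0.14, adjusted p = 3.33e-06). The oncostatin M receptor Osmr was higher (log2 fold change 2.09, SE 0.28, edgeR adjusted p = 0.000138), as was the TNF receptor Tnfrsf1a (1.31, SE 0.15, adjusted p = 2.93e-05), and the LIF receptor Lifr was lower, from 309.6 to 619 CPM down to 39.4 to 51.1 CPM (-3.13, SE 0.25, adjusted p = 1.76e-06).

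Of 12 acute phase transcription factors and feedback genes 11 were tested, 4 were called higher, with a median log2 fold change of 0.74. Stat3 had 36.2, 55.2, 66.9 and 52.9 CPM in Control 1 to 4 and 154, 168 and 177 CPM in LPS 1 to 3, with no overlap (log2 fold change 1.66, SE 0.18, edgeR adjusted p = 2.98e-05). Its feedback inhibitor Socs3 had 2.69 to 9.85 CPM in Control mice and 40.1 to 63.7 CPM in LPS-treated mice (log2 fold change 2.90, SE 0.32, edgeR adjusted p = 2.61e-05). Cebpd was higher (log2 fold change 2.34, SE 0.36, edgeR adjusted p = 0.000364), as was the NF-kappa B cofactor Nfkbiz (2.18, SE 0.26, adjusted p = 5.58e-05). Cebpb was under the fold threshold, at 0.92 (edgeR adjusted p = 0.00299, SE 0.19), and over it without Control 2, at 1.11.

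Since the genes moved together, their promoters were searched for the letters that such factors are known to prefer. RefSeq promoters of assembly GRCm38.p6 of 300 bases around the transcript start were matched by symbol for 7 of the 10 genes, Orm2, Orm3, Hpx, Itih3, Itih4, Apcs and Cp, and not for Orm1, Hp and A2m. Of the 27025 genes in the promoter table, 12.2% have a promoter with the C/EBP type TTGCNNAA on either strand, 9.55% with the STAT3 type TTCNNNGAA, 12.7% with the IL-6 element CTGGGAA and 1.45% with the NF-kappa B type GGANTTTCC. Among the 7 genes the C/EBP letters were found in 4 (Orm2, Orm3, Hpx and 1 of the 2 starts of Cp), the STAT3 letters in 2 (Itih4 and Apcs), the IL-6 element in 2 (Orm3 and Apcs) and the NF-kappa B letters in 0, and the matches did not overlap each other. The promoters of Orm2 and Orm3 are shown because these neighbouring genes rose by unlike amounts, that of Apcs because it holds 3 matches, and those of Itih4 and Hpx for the position of their single match. They lie at chr4:63362199-63362498, plus strand, chr4:63355908-63356207, plus strand, chr1:172895005-172895304, minus strand, chr14:30886226-30886525, plus strand, and chr7:105600067-105600366, minus strand, and are written 5′ to 3′ along the transcript with each match in capitals.
Orm2: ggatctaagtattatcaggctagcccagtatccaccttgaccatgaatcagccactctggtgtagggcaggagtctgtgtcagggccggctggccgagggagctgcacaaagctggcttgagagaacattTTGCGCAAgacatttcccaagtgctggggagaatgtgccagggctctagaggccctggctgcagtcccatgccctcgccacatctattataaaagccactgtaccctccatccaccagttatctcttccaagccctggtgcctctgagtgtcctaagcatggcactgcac
Orm3: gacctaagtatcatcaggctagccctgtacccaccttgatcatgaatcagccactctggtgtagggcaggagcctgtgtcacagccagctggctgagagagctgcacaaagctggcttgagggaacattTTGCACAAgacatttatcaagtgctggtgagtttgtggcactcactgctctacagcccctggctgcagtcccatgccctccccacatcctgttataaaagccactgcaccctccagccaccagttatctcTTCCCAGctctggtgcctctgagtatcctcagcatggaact
Apcs: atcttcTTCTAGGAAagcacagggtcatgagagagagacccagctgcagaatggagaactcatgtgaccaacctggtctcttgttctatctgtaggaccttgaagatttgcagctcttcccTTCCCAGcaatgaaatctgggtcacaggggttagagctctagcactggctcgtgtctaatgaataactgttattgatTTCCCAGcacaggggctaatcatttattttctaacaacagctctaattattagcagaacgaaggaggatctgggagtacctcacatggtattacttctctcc
Itih4: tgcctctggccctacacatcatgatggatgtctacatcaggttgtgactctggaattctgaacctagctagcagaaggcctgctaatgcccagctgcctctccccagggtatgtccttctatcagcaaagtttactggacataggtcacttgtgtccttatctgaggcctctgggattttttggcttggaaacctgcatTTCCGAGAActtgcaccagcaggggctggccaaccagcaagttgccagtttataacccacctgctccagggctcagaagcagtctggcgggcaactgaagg
Hpx: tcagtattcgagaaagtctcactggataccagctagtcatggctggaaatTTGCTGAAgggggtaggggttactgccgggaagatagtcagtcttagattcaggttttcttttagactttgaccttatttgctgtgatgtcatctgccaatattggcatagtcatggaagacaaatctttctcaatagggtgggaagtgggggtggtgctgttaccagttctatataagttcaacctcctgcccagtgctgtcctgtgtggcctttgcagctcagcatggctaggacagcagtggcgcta

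The match in Orm2, TTGCGCAA, begins 120 bases before the start, and that in Orm3, TTGCACAA, begins 121 bases before it. Orm3 also holds TTCCCAG, the IL-6 element read on the other strand, from base 10 after the start. In Apcs the STAT3 match TTCTAGGAA begins 244 bases before the start, and TTCCCAG occurs 129 and 52 bases before it. The Itih4 match TTCCGAGAA begins 51 bases before the start, and the Hpx match TTGCTGAA 200 bases before it. A match only describes these letters, and factor binding was not measured here.

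Markers of the cells that make up the liver were read beside the 10 genes. Of 10 hepatocyte markers, all tested, 1 was called higher (Trf) and 1 lower (Ttr), with a median log2 fold change of -0.07. Their summed level was 72932, 74008, 102380.0 and 87371 CPM in Control 1 to 4 and 61424, 71695 and 72409 CPM in LPS 1 to 3, with none at 0 and Alb the highest by the mean over all mice, though Trf was above it in LPS 2 and LPS 3. The median hides changes in both directions that were under the fold threshold. Alb, Apoa1 and Asgr2 had log2 fold changes of -0.93, -0.70 and -0.69 (edgeR adjusted p = 0.0137, 0.0231 and 0.00299), with every LPS-treated mouse below every Control mouse. Hnf4a and Cps1, at 0.74 and 0.62 (edgeR adjusted p = 0.0096 and 0.0527), had every LPS-treated mouse above every Control mouse. The iron carrier gene Trf had a log2 fold change of 1.03 (edgeR adjusted p = 0.00597, SE 0.23) and was under the fold threshold without Control 1 (0.89), Control 2 (0.99), LPS 2 (0.97) or LPS 3 (0.96), with total counts and no scaling (0.88) and with LPS 2 and LPS 3 summed (0.97).

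Of 9 neutrophil markers 7 were tested, and all 7 were called higher. Some of the 7 had at most 2 counts in any Control mouse and passed the low-count filter only through the LPS-treated mice, so for these being tested already meant being higher. Their summed level was 5.24, 3.34, 1.65 and 2.56 CPM in Control 1 to 4 and 209, 158 and 154 CPM in LPS 1 to 3. S100a9 was the most abundant in LPS-treated mice but not in Control mice, with 0.611 to 2.05 CPM in Control mice and 72.4 to 103 CPM in LPS-treated mice. The defining marker Ly6g, named after its values were seen, had 0 counts in each Control mouse and 7, 0 and 1 counts in LPS 1 to 3. Of 9 Kupffer cell and macrophage markers, all tested, 4 were called higher and 1 lower. They summed to 136, 198, 186 and 120 CPM in Control 1 to 4 and to 694, 180.2 and 185 CPM in LPS 1 to 3, so LPS 1 stood apart, mostly through Marco, with 410 CPM in LPS 1 and 66.5 and 65.6 CPM in LPS 2 and 3. The sums hide changes in opposite directions. Cd5l had 24.1 to 45.0 CPM in Control mice and 75.8, 4.90 and 3.30 CPM in LPS 1 to 3. Timd4 had 1.98 to 5.26 CPM, then 12.9, 0.0644 and 0.623 CPM. Vsig4 had 8.63 to 12.1 CPM, then 10.9, 3.61 and 1.93 CPM. None of these markers was called. Without LPS 1 the log2 fold change of Marco went from 5.62 to 4.17, that of the lysosomal Cd68 from 2.23 to 1.59 and that of the Kupffer cell lectin Clec4f from -2.13 to -3.09. No gene of these 2 lists was at 0 in all mice.

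Markers of other cell types were also read. Of 7 sinusoidal endothelium markers, all tested, 2 were called higher (Lyve1 and Pecam1) and 1 lower (Clec4g), with Stab2 the highest by the mean over all mice but not in LPS-treated mice, and sums of 112, 143, 92.3 and 125 CPM in Control 1 to 4 and 149, 79.4 and 78.4 CPM in LPS 1 to 3, and Pecam1 was under the fold threshold without LPS 1 (0.81). Of 7 stellate cell markers, all tested, 3 were called lower (Reln, Colec11 and Lrat), with Dcn the most abundant and sums of 162 to 361 CPM and 175 to 222 CPM, and Lrat had an adjusted p above 0.05 in edgeR without Control 4 (0.0524), LPS 1 (0.067) or LPS 2 (0.0676) and with the replicate number as a block (0.0823, log2 fold change -0.96). Of 6 cholangiocyte markers, all tested, 1 was called higher (Sox9), with Spp1 the most abundant and sums of 72.5 to 264 CPM and 138 to 165 CPM. Of 6 erythroid markers, all tested, 4 were called lower, with Hbb-bs the highest by the mean over all mice, though Alas2 was above it in Control 3, Control 4, LPS 2 and LPS 3, and sums of 309, 184, 233 and 179 CPM in Control 1 to 4 and 137, 54.0 and 53.8 CPM in LPS 1 to 3. Calls of Hba-a1 and Hbb-bt, both among these 4, depended on single libraries as given above. Hbb-bs, also among them, had an adjusted p of 0.0468 in edgeR with LPS 1 inside the Control range, and no alternative was run on it. The remaining one, Alas2, had a log2 fold change of -1.41 (edgeR adjusted p = 3.09e-05, SE 0.16). Its LPS-treated mice were all below the Control mice, and its call was kept in all 18 alternatives. Mitochondrial genes took 7.48% to 23.7% of each Control library and 3.83% to 6.45% of each LPS library, so this share moved with the group. The part of these cell types in the results for the 10 acute phase genes was not tested. With mitochondrial genes left out of the table, an alternative chosen after seeing the data, all 10 were still called higher.

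These values describe RNA in whole liver at a single time after a single dose, in male mice of an inbred strain, with 4 and 3 animals. Protein in liver or plasma, the rate of transcription and the stability of the transcripts were not measured here. The order of the genes by level rests on exon lengths from an annotation other than the one used for counting, and the split among the orosomucoids on how similar reads were assigned. Levels of A2m and Orm3 in Control mice rest on few counts.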

How the data were processed

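RNA was measured in whole liver of 4 Control mice and 3 LPS-treated mice by strand-specific sequencing of polyadenylated RNA. Raw counts are what the authors deposited, as integers for 56691 genes that had not been normalized. The submitters' processing notes name cutadapt 1.9.1, HISAT2 2.2.1, HTSeq 0.6.1, DESeq2 1.34.0 and the build GRCm39. Neither the strand setting of the counting nor its handling of multi-mapping reads is stated. No annotation of that build was used here: promoters and their coordinates come from RefSeq (GRCm38.p6) and exon lengths and transcripts from GENCODE M21.

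The software was edgeR 4.0.16 under R 4.3.3. After filterByExpr and TMM scaling, a model with group as its single term gave the quasi-likelihood test of LPS against Control, and Benjamini-Hochberg adjustment ran over all 13683 tested genes. The SE is the log2 fold change divided by the square root of the test's F. Ratios between genes were taken on counts within a mouse, with 0.5 added before the log2, and compared by an exact permutation test. Likeness of profiles was measured on log2(CPM + 0.5). Alternative settings used DESeq2 1.42.0, RLE factors or unscaled totals, library sizes without genes over 1% of counts, no filter or a minimum of 10 counts in every mouse, a stricter adjusted p of 0.01, calls without the fold threshold, a replicate block, each mouse left out in turn, LPS 2 and LPS 3 summed, and, chosen after seeing the data, mitochondrial genes left out. The script for the test was tested on simulated data.

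The members and the gene lists were chosen with earlier results of these data known. Named were the 10 members, up to 3 called genes with the smallest p in each direction in each list, a set of partners and receptors, and the 5 genes most alike in profile. Any other gene in the text, such as the marker with the highest mean over all mice, is there as a description, and the alternatives were not run on it.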

Additional observations from a re-analysis of the deposited data

Results flagged for a closer look

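Among the 67 named genes with enough counts, 3 had a Control mouse set apart from the other 3 by more of the group's range than Dixon's 95% critical value for 4 samples. Chance alone marks about 1 in 20 groups in this way. Hpx had 2590 CPM to 3 digits in Control 4, against 3340 to 3470 CPM in the other Control mice, a gap of 0.856 of the range. Without Control 4 its log2 fold change was 3.26. The endothelial marker Lyve1 had 7.74 CPM in Control 4, against 4.80 to 5.02 CPM in the others (0.923 of the range). The stellate cell marker Reln had 29.1 CPM in Control 3, against 39.2 to 41.3 CPM (0.830 of the range). The LPS group, with 3 mice, is too small for this rule.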

How the results depend on the processing

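Each of the 10 acute phase genes was called higher, with no overlap between groups, under all 18 alternatives, with log2 fold changes from 1.52 to 1.80 for Cp, the smallest, and from 8.78 to 9.26 for A2m, the largest. Their highest edgeR or DESeq2 adjusted p was 0.000864, for Cp. Of the values of the other genes named by rule, 1018 kept their direction and their side of the thresholds, 39 were no longer past a threshold, 11 passed one they had missed, and 0 changed direction. The number of genes called higher was 1068 and went to 693 when at least 10 counts were required in every mouse, where fewer genes were tested (11307). Without a fold change threshold 1825 genes were higher and 1773 lower, since that setting also admits small changes. Leaving out 1 mouse gave between 945 and 1055 higher and between 792 and 1059 lower. With total counts and no scaling factor, 926 were higher and 1177 lower, and the median log2 fold change of all genes went from -0.01 to -0.13. The log2 fold changes of the 10 genes, 1.52 (Cp) to 8.90 (A2m) in that setting, are to be read against this shift. With the replicate number as a replicate block, 995 genes were higher and 926 lower, with all 10 acute phase genes among the former. The deviations of same-numbered mice from their group means correlated at 0.20, -0.06 and 0.08 across genes. No values for differently numbered mice were set beside these, so they cannot settle whether the shared numbers pair the mice. Among the 10 genes depth limits Orm3 and A2m most, which had as few as 16 counts in a Control mouse.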
